A study of Mus musculus with 12 samples.

Results

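The comparison described here is between the chromatin of mesenteric lymph node stromal cells from specific pathogen-free (SPF) mice and from germ-free (GF) mice, measured by ATAC-seq over every distinct autosomal peak of the study. These were 41290 of the 42424 distinct peaks, in 3 libraries labelled mLN-SPF and 3 labelled mLN-GF. The cells were non-endothelial stromal cells, sorted by flow cytometry as CD45- CD24- CD31- Pdpn+ from the mesenteric lymph nodes (mLN) of BALB/c mice, and no library carried a further treatment. The same series holds skin-draining peripheral lymph nodes (pLN) from both housings, with 3 pLN-SPF and 2 pLN-GF libraries analysed here. The library labelled pLN-GF 2 has no values of its own in the deposited data and was left out. SPF mice carry a gut microbiota screened for pathogens, whereas GF mice are kept in isolators without microbes. According to the study's methods the SPF mice were bred at a single institute, which lists a CD90.1 BALB/c line and lines of another strain among its mice. The methods do not say which line gave the SPF libraries used here. The GF mice, listed there as BALB/c, were derived by caesarean section at another institute and kept in isolators at either of them. Which institute held the GF mice of these libraries is not given in the sources used here, and housing and the origin of the mice cannot be told apart in any value below. The study gives a range of ages in weeks for each housing, overlapping but reaching older ages in SPF mice, and the age of each library's mice is not given, so a part of age in any difference cannot be told apart from housing either. The labels do not say whether the libraries came from separate animals, so the p-values measure the spread between these libraries, part of which may be technical. Because the libraries are bulk samples of sorted cells, fewer cells of one type and lower accessibility per cell cannot be told apart.

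Mesenteric lymph nodes drain the gut, and their fibroblastic reticular cells and CD34+ stromal cells build the scaffold on which lymphocytes meet antigen. These cells secrete chemokines and survival factors, make the node's extracellular matrix, and in mesenteric nodes help imprint gut homing through retinoic acid. Microbes and their products can reach stromal cells through pattern recognition receptors, cytokines, and diet- or microbe-derived ligands of nuclear receptors. ATAC-seq uses a transposase that inserts sequencing adapters where DNA is not covered by nucleosomes, so a peak marks a promoter or a candidate regulatory element that is open in part of the cells. Each peak is named here by the nearest transcription start site of a protein-coding gene, which is a label of position and not evidence that the peak acts on that gene.

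The DNA under the peaks with the lowest p-values in each direction is shown first, since the results turn on whether any single element differed between the housings. All are the plus strand of the mouse genome GRCm38.p6 from RefSeq, and capitals mark matches to 10 motifs searched on both strands. These were the AP-1 motif TGANTCA, the cyclic AMP response element TGACGTCA, the E-box motif CACGTG and the interferon element GAAANNGAA. The search also covered the NF-kB motif GGGANTTCC, the RUNX motif TGTGGT and the TEAD motif GGAATG. Promoter elements were the GC box GGGCGG, the CCAAT box, whose letters are its name, and the TATA box TATAAA. The first 4 had more accessibility in mLN-GF and the last 3 in mLN-SPF. For the H2-Q7 promoter the central 300 bp, chr17:35438941-35439240, are printed.
H2-Q7: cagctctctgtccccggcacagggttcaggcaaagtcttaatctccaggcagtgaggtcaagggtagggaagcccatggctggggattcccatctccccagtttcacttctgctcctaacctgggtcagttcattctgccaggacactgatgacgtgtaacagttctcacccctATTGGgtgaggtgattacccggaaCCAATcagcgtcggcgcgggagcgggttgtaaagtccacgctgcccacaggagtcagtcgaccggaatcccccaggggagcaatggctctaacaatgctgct
Ubxn11 promoter, chr4:134124405-134124551: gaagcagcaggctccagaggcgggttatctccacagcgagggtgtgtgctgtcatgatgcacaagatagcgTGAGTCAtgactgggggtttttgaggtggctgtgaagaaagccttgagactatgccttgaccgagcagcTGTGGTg
Usp34 intron, chr11:23332281-23332432: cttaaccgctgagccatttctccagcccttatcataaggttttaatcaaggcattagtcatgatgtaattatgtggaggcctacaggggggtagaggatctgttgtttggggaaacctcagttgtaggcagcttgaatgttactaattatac
Adgrf3 promoter, chr5:30206509-30206684: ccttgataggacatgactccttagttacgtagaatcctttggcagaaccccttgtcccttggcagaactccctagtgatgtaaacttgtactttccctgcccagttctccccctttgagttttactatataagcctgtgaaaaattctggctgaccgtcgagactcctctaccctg
F5 intron, chr1:164184600-164184772: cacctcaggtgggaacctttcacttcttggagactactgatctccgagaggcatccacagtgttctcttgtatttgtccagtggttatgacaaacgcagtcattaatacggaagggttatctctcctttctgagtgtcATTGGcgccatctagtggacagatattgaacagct
Upstream of Ahdc1, chr4:133005383-133005510: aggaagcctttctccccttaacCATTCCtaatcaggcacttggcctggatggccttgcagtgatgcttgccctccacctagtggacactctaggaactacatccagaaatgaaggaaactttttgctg
Mthfd2l intron, chr5:90977335-90977518: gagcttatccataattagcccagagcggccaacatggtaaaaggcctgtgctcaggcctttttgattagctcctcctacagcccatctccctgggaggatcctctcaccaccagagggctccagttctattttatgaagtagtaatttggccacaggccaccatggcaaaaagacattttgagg

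Of the motifs searched, these 7 windows shared none that set a housing apart. Other motifs, such as that of CTCF, were not searched, so a sequence shared by the windows of a single housing is not excluded. The H2-Q7 promoter window held 2 CCAAT boxes, which lie in opposite orientations close to each other, and 32.6% of the peaks at least as wide held a CCAAT box in a window of the same length. The Ubxn11 window held an AP-1 match (in 10.7% of same-length windows) and a RUNX match (8.29%). The F5 window held a CCAAT box (20.7%) and the Ahdc1 window a TEAD match (8.45%), while the Usp34, Adgrf3 and Mthfd2l windows held no match to any of the motifs. A match is a description of the letters and not of a bound site. Each motif was searched only as the string given, so a window without a match may still hold a variant of it. This holds for the NF-kB and interferon elements at H2-Q7 too.

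The 6 mesenteric libraries held between 2795036 (mLN-SPF 3) and 5946645 (mLN-GF 2) reads in autosomal peaks, with a median of 37 to 85 reads per peak. Levels are given as deposited, in RPKM, that is reads scaled for peak width and library depth. Peaks were 98 to 3959 bp wide with a median of 537 bp. Across peaks, the correlation of log2 values was 0.761 to 0.799 among mLN-SPF libraries, 0.814 to 0.816 among mLN-GF libraries and 0.727 to 0.832 between the groups, so that the groups did not form separate blocks. Of the sorting markers, Pdpn had no peak within 1 kb of its start site and was represented by an intronic peak 2.23 kb away (53.5, 42.9 and 23 RPKM in mLN-SPF and 37.5, 47.8 and 31.8 in mLN-GF). None of 12 hematopoietic marker genes, Ptprc (CD45) included, had a promoter peak among the peaks analysed, nor did the endothelial genes Pecam1 (CD31) and Cdh5. Other endothelial genes did, namely 6 of 17 blood endothelial genes, such as Kdr and Flt1, and 3 of 8 lymphatic endothelial genes, Prox1 among them. Promoters of stromal genes such as Pdgfrb and Cd34 were open in all 6 libraries.

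No autosomal peak passed the threshold for a differentially accessible region (DAR) between mLN-SPF and mLN-GF. With limma on log2(RPKM + 1), 0 of 41290 peaks (0%) had a Benjamini-Hochberg adjusted p under 0.05 with at least 2-fold change, and the lowest adjusted p was 0.0747, at the promoter of the MHC class I gene H2-Q7. That adjustment ran over all 42424 peaks, and over autosomal peaks alone the lowest adjusted p was 0.127, again at H2-Q7. Without adjustment, 3366 peaks had a p under 0.05, with 1249 higher in mLN-SPF (3.02% of peaks) and 2117 in mLN-GF (5.13%). This split depended on scaling and on single libraries, with 1865 and 2015 peaks after quantile normalization, 831 and 1278 without mLN-GF 1, 1980 and 2194 without mLN-GF 3, and 782 and 1829 when the 6 mesenteric libraries were fitted alone. A count-based fit (limma-voom on the whole reads recovered from the RPKM values) called 2 peaks (0.00484%), H2-Q7 and an intron of Myo3a. By their point estimates 980 peaks differed by at least 2-fold, 220 upward in mLN-SPF and 760 upward in mLN-GF, of which 6 and 32 were promoters.

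The precision of the fit bounds these differences. The median standard error of the log2 difference, from the spread within all 4 groups of the 11 libraries, was 0.267, which gives a median 95% interval of ± 0.573. In 28611 peaks (69.3%) the whole interval lay within a 2-fold difference in either direction, and in 22.5% it lay within 1.5-fold. Promoters were measured best, since 91.0% of the 12075 promoter peaks had an interval within 2-fold and 47.0% within 1.5-fold, against 60.2% and 11.8% of intronic peaks.

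**Figure D1:**
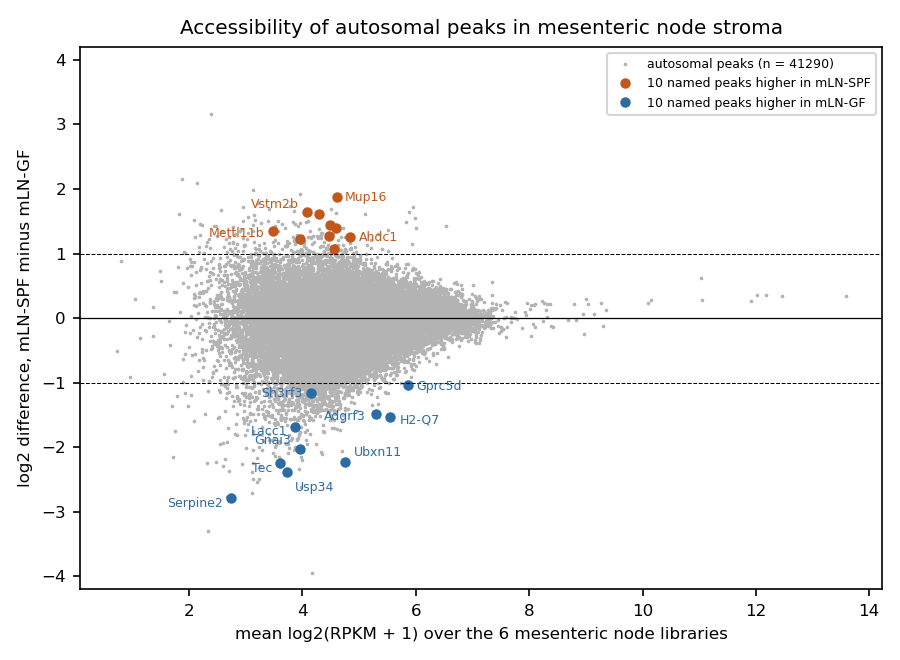
Log2 difference of accessibility (mLN-SPF minus mLN-GF, y axis) against the mean log2(RPKM + 1) of the 6 mesenteric libraries (x axis) for 41290 autosomal peaks in grey. The 10 named peaks per direction are coloured, dashed lines mark 2-fold, all 10 peaks higher in mLN-GF and 4 of those higher in mLN-SPF carry their names, and no point passed the DAR threshold.

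The element nearest to the threshold was the promoter of H2-Q7, a nonclassical MHC class I gene that encodes the Qa-2 antigen. Its peak (chr17:35438900-35439281, 382 bp, centred 65 bp upstream of the start site) had 33.6, 20.7 and 25.8 RPKM in mLN-SPF and 76.7, 78.9 and 79.0 RPKM in mLN-GF. All 3 mLN-GF libraries were above every mLN-SPF library, and the mLN-GF values were close to one another. The mean was 26.7 ± 6.49 RPKM (SD, n = 3) in mLN-SPF and 78.2 ± 1.33 in mLN-GF, a log2 difference of -1.54 ± 0.21 (SE; 95% interval -1.99 to -1.09) with a limma adjusted p of 0.0747 (0.127 with autosomal peaks alone). The voom fit gave an adjusted p of 0.0355. In the peripheral nodes the same peak had 28.7, 20.9 and 18 RPKM in pLN-SPF and 84.0 and 109.3 in pLN-GF, a log2 difference of -2.07 that passed the threshold (limma adjusted p = 0.00846). That call was lost without pLN-GF 1 (adjusted p = 0.0507) or pLN-GF 3 (0.141), fits in which the 1 remaining pLN-GF library is assumed to vary like the other groups, and with variances of no trend (0.0918). Peripheral and mesenteric libraries were thus ordered alike, with no overlap between the housings in either node. H2-Q7 belongs to a family of near-identical genes, and because uniquely mapped reads were counted, reads from its copies may have been lost or placed elsewhere, so its level is uncertain.

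No peak around H2-Q7 shared a difference of its size. Within 200 kb the groups were apart at 3 peaks with mLN-GF above, H2-Q7 included, and at 1 with mLN-SPF above. Over all autosomal peaks these shares were 6.43% and 4.62%. Of the 14 peaks within 200 kb, H2-Q7 was the 1 peak past 2-fold, and the others had log2 differences from -0.51 to 0.84 with a median over all 14 of -0.16. Its neighbour H2-Q6, another class I gene of the Q region, had 24.9, 19.3 and 19.7 RPKM at its promoter in mLN-SPF and 29.1, 29.0 and 26.2 in mLN-GF. The H2-Q6 groups did not overlap, with mLN-GF above, at a log2 difference of -0.39 (adjusted p = 0.66). In pLN they were apart in the same direction, at -0.42. The classical class I promoters H2-D1 and H2-K1 had log2 differences of 0.11 and 0.15, H2-Q4 0.16, and B2m, the light chain of all these molecules, 0.08. None of these other class I promoters came near 2-fold.

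**Figure D2:**
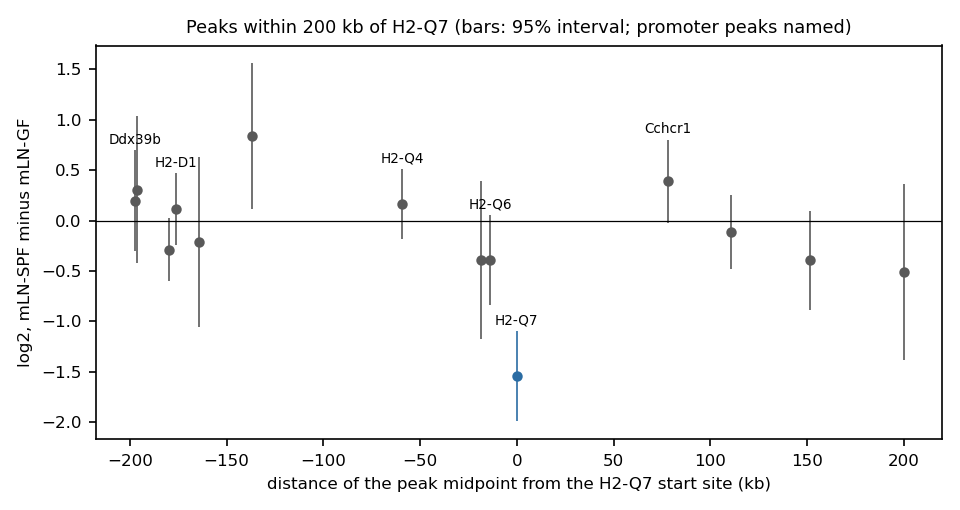
Peaks within 200 kb of the H2-Q7 promoter by distance from its start site (x axis), with the log2 difference mLN-SPF minus mLN-GF and its 95% interval (y axis). The H2-Q7 promoter stands at -1.54 and the other 13 peaks lie between -0.51 and 0.84.

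The 10 peaks named for mLN-GF had the lowest p-values among 468 peaks whose groups did not overlap, with at least 2-fold change and at least 10 RPKM in mLN-GF. They lay at 3 promoters, 4 introns and 3 intergenic sites and had adjusted p from 0.0747 to 0.226. Of these, 7 were under 300 bp wide, and single libraries held as few as 1 read, so most were small, sparsely covered elements. Ubxn11, which encodes a UBX domain protein, had 11.9, 8.8 and 14.4 RPKM at a narrow promoter peak in mLN-SPF and 95.1, 35.9 and 55.0 in mLN-GF. Every mLN-GF library was above every mLN-SPF library, but the mLN-GF libraries were spread widely (log2 difference -2.23 ± 0.33, adjusted p = 0.112). An intronic peak of Usp34, a deubiquitinase gene, had 6.4, 3.6 and 4.6 RPKM in mLN-SPF and 41.7, 16.4 and 36.6 in mLN-GF. A peak in the promoter of Adgrf3, which encodes an adhesion G protein-coupled receptor, had 21.0, 27.2 and 20 RPKM in mLN-SPF and 60, 72.4 and 62.3 in mLN-GF. Both were apart between the housings, with log2 differences of -2.39 ± 0.36 and -1.48 ± 0.23 and the same adjusted p of 0.112. The whole Adgrf3 peak (100%) lay in sequence masked as repeats in the genome, so its level is uncertain too. A distant intergenic peak nearest to Serpine2, which encodes a serine protease inhibitor of the matrix, had 1.3, 1.2 and 2.3 RPKM in mLN-SPF and 12.1, 16.3 and 23.5 in mLN-GF, from 1 read per library in mLN-SPF. The remaining 5, nearest to Gnai3 (an inhibitory G protein subunit), Sh3rf3, Lacc1, Gprc5d and Tec (a tyrosine kinase), had log2 differences from -2.25 to -1.05.

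The 10 peaks higher in mLN-SPF, chosen in the same way from 112, had adjusted p from 0.230 to 0.312, and none was a promoter. Of these, 8 were under 300 bp wide. An intronic peak of F5, the coagulation factor V gene, had 43.9, 31.9 and 26.5 RPKM in mLN-SPF and 12.2, 15.3 and 12.5 in mLN-GF. The intergenic peak near Ahdc1, an AT-hook DNA-binding protein gene, had 54.7, 30.2 and 49.6 against 16.5, 19.4 and 16.8. An intronic peak of Mthfd2l, a mitochondrial folate enzyme gene, had 45.5, 31.0 and 32.6 against 11.5, 13.5 and 12.7. In each of these the mLN-SPF libraries were the more variable and all lay above the mLN-GF libraries, with log2 differences of 1.27 ± 0.24, 1.26 ± 0.25 and 1.44 ± 0.28 and an adjusted p of 0.230. The largest difference of the 10 was 36.5 kb from Mup16, a major urinary protein gene of a tandem family, with 47.2, 32.4 and 61.9 RPKM against 20.8, 5.7 and 13.1 (log2 1.88 ± 0.41). The others lay near Ap1s3, Arhgap35, Vstm2b, Mettl11b, Ptprr (a protein tyrosine phosphatase) and Lamp1 (a lysosomal membrane protein), with log2 differences from 1.08 to 1.64. The Myo3a intron peak that the voom fit called (chr2:22587319-22590519, 3201 bp, described because of that call) had 101.1, 132.3 and 94.0 RPKM in mLN-SPF and 32.2, 19.4 and 74.6 in mLN-GF. Its limma log2 difference was 1.55 ± 0.37 with an adjusted p of 0.331, and its voom adjusted p was 0.0435.

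**Figure D3:**
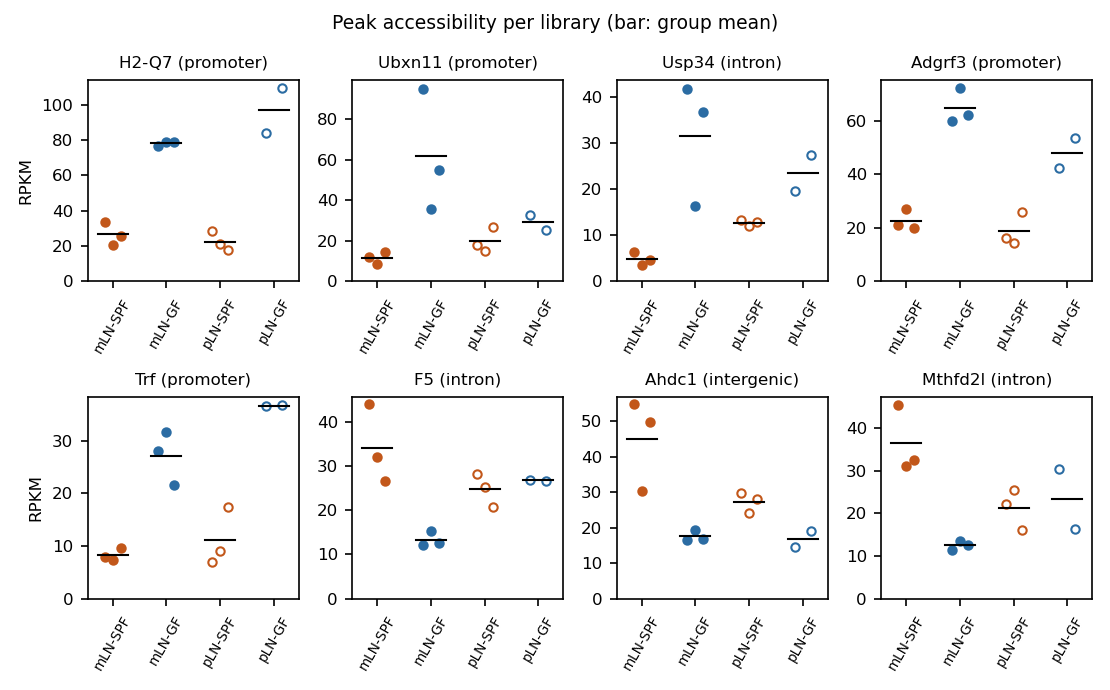
RPKM per library (points; bars are group means) at 8 named peaks in mLN-SPF, mLN-GF, pLN-SPF and pLN-GF. At the H2-Q7 and Trf promoters both nodes separate by housing, whereas the mesenteric difference at F5 and Mthfd2l is not seen in the peripheral nodes, where their log2 differences were -0.12 and -0.10.

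The levels of the peripheral libraries did not choose these 20 peaks, but their spread did, since it entered the p-values of the shared fit, and the mice had the same origins. Whether libraries of both nodes came from the same mice is not given, so likeness between the nodes may not be independent. Of the 10 peaks higher in mLN-GF, 7 were also apart in the same direction in pLN and all 10 had the same sign. Of the 10 higher in mLN-SPF, 3 were apart in the same direction, 1 (Arhgap35) in the opposite direction, and 5 had the same sign. When the p-values of the 6 mesenteric libraries alone chose 10 peaks per direction, an alternative added after seeing the data, 5 of the 10 in each direction were the same peaks. Of those 10 higher in mLN-GF and 10 higher in mLN-SPF, 4 and 4 were then apart in the same direction in pLN, 0 in the opposite direction, and 8 and 8 had the same sign. Over all autosomal peaks, the groups did not overlap in mLN at 1909 peaks with mLN-SPF above (4.62%) and 2655 with mLN-GF above (6.43%). Of these, 546 (28.6%) and 786 (29.6%) were apart in the same direction in pLN, where 14.1% of all peaks had pLN-SPF above and 14% had pLN-GF above. At 218 peaks both nodes were apart in opposite directions. The log2 differences of the 2 nodes had a Pearson r of 0.274 across 41290 peaks, given as a description because peaks are not independent and the mice of both nodes had the same origins. In pLN 2 peaks were DARs (0.00484%), H2-Q7 and an intergenic peak 82.3 kb from C1qtnf3, an adipokine gene. The pLN count was 44 with voom and 10 after centring by GC content and width, and the C1qtnf3 call was lost without pLN-GF 1 (adjusted p = 0.0791), pLN-GF 3 (0.148) or both mLN libraries numbered 2 (0.0568). No peak passed the test of a different housing effect in the 2 nodes (interaction, 0% of peaks by limma, with 1455 at an unadjusted p under 0.05 and 0 by voom). The C1qtnf3 peak had 17.1, 14.2 and 9.9 RPKM in mLN-SPF and 41.7, 39.3 and 32.8 in mLN-GF. The mesenteric groups were apart in the same direction there as well (log2 -1.43 ± 0.28, adjusted p = 0.230).

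Small shifts followed the kind and width of the element. The median log2 difference was 0.07 at promoters, -0.08 in coding exons, -0.04 in untranslated regions, -0.10 in introns and -0.03 between genes, against -0.01 over all autosomal peaks. By width the medians were -0.14, -0.08, -0.03, 0.01 and 0.08 from the narrowest to the widest of 5 equal groups of peaks. The peaks with mLN-GF above, of any size of difference, had a median width of 375 bp, with 45.5% in introns and 14.4% at promoters, whereas those with mLN-SPF above had a median of 604 bp, 24.8% in introns and 35.6% at promoters. Among those at least 2-fold apart the median widths were 195.5 bp for the 474 with mLN-GF above and 193 bp for the 121 with mLN-SPF above, and 3.8% and 2.48% were promoters. In the libraries as wholes, the mean peak width weighted by reads was 959, 944 and 956 bp in mLN-SPF and 932, 933 and 933 bp in mLN-GF. These groups did not overlap, and the exact permutation test gave p = 0.1, two-sided, which is the smallest value 3 against 3 libraries allow. In pLN the values were 947 to 949 bp with SPF and 930 to 938 bp with GF. The mean GC content of the reads' peaks was 56.3% and 56.1% (exact permutation p = 0.8). When each library was centred within bins of GC content and width, a choice made after seeing these shifts, the promoter median became -0.03 and the intergenic median 0.03, so the sign of the shift at promoters depended on that centring. With it, 0 peaks passed the DAR threshold by limma, and 3235 had an unadjusted p under 0.05.

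**Figure D4:**
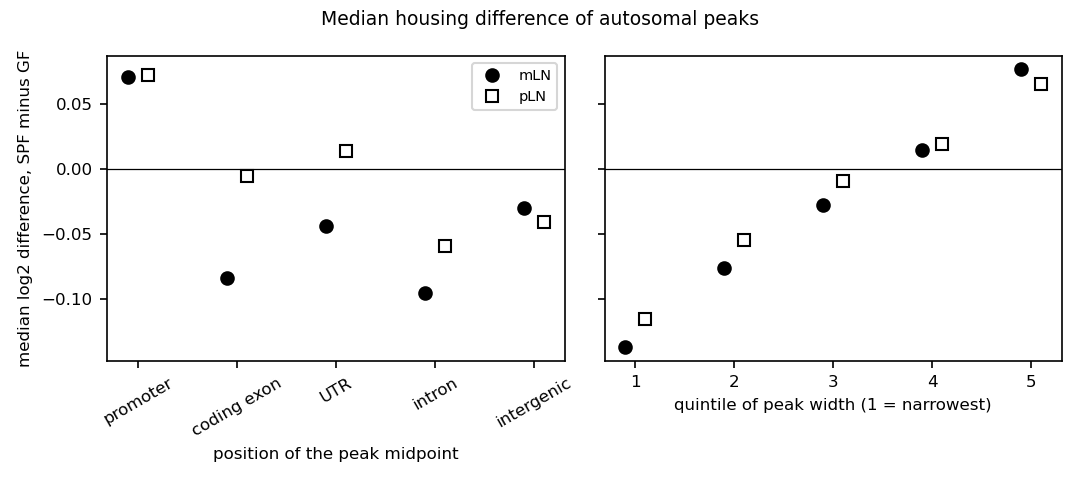
Median log2 difference (SPF minus GF, y axis) of autosomal peaks by position of the peak (left) and by quintile of peak width (right), for mLN (filled circles) and pLN (open squares). The mLN medians run from -0.14 in the narrowest to 0.08 in the widest group, and from -0.10 in introns to 0.07 at promoters.

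A total of 30 gene lists covering microbial sensing, cytokines, metabolite receptors, matrix and cell identity held 600 genes, of which 502 were nearest to at least 1 of 2224 autosomal peaks. No list held a DAR, and the list medians ran from -0.18 to 0.09. For each list, the counts below are of peaks at an unadjusted p under 0.05, to be read against 3.02% of all peaks higher in mLN-SPF and 5.13% higher in mLN-GF. Such counts move with the scaling and the libraries used, as the split over all peaks does.

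Of 82 peaks near pattern recognition genes, 2 were higher in mLN-SPF and 3 in mLN-GF, with a median of -0.06. The lowest p belonged to an intergenic peak 35.3 kb from Ripk2, the kinase downstream of NOD receptors, which had 0.0, 11 and 0.0 RPKM in mLN-SPF and 5.3, 13.2 and 13.5 in mLN-GF, so the groups overlapped. In the NF-kB and lymphotoxin receptor pathway, which drives the maturation of reticular cells, 7 of 127 peaks were higher in mLN-SPF (5.51%) and 16 in mLN-GF (12.6%), while the list median was 0.01. A peak 49.6 kb from Tnfaip3, the gene of the NF-kB inhibitor A20, had 6.8, 27.2 and 9.9 RPKM in mLN-SPF and 46.5, 28.5 and 60.7 in mLN-GF (log2 -1.72 ± 0.48, adjusted p = 0.427). The groups at Tnfaip3 were barely apart, with 27.2 in mLN-SPF against 28.5 in mLN-GF. Peaks near Nfkb1, Tnfrsf1b (TNF receptor 2) and Map3k14 (the NF-kB-inducing kinase) were likewise higher in every mLN-GF library, with log2 differences from -0.87 to -0.50. Over the whole NF-kB list the groups were apart at 11 peaks with mLN-GF above (8.66%, against 6.43% of all peaks). They were apart at 8 with mLN-SPF above (6.3% against 4.62%).

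Among 58 peaks near interferon-stimulated genes, 2 were higher in mLN-SPF, the promoters of Rsad2 (0.53) and Zbp1 (0.54), and 0 in mLN-GF, by limma at an unadjusted p. The groups of that list were apart at these 2 peaks and, with mLN-GF above, at 3 promoters, those of Isg15 (-0.39), Cxcl10 (-0.22) and Usp18 (-0.14), which is 3.45% and 5.17% of its peaks against 4.62% and 6.43% of all peaks. Isg15, Cxcl10, Usp18 and Oas1a were named after their values were seen. The lowest log2 difference of the list, -2.23 ± 1.14, was at the promoter of Oas1a, an antiviral enzyme gene. That promoter had 0.0, 0.0 and 15.9 RPKM in mLN-SPF and 21.3, 12 and 5.1 in mLN-GF, so the groups overlapped. In the peripheral nodes it had 0.0, 0.0 and 13.5 RPKM in pLN-SPF and 11.9 and 5.9 in pLN-GF. In both nodes only the SPF library numbered 3 had reads there, so the SPF libraries differed among themselves. Near the interferon regulatory factors and receptors the counts were 3 and 5 of 78. The promoter of Irf8, a factor best known from myeloid cells, had 52.8, 35.1 and 31.2 RPKM in mLN-SPF and 16.4, 29.6 and 26.3 in mLN-GF (log2 0.70 ± 0.24, adjusted p = 0.514), with the lowest mLN-SPF value just above the highest mLN-GF value. In the MHC and antigen presentation list, 2 of 48 peaks were higher in mLN-SPF and 4 in mLN-GF. Besides H2-Q7, a peak 73.9 kb from Cd1d1, which presents lipids to NKT cells, had 22.0, 13.1 and 19.2 RPKM in mLN-SPF and 47.5, 42.3 and 36.1 in mLN-GF (log2 -1.19 ± 0.29, adjusted p = 0.346). The Cd1d1 groups were clearly apart in mLN, while the pLN log2 difference was -0.05.

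Cytokines, chemokines and survival factors are the products by which reticular cells maintain lymphocytes. Of 105 peaks near inflammatory cytokines and chemokines, 4 were higher in mLN-SPF and 3 in mLN-GF. The promoter of Ccl11, the eosinophil chemokine eotaxin, had 44.8, 50.5 and 36.3 RPKM in mLN-SPF and 35.6, 25.1 and 19.8 in mLN-GF (log2 0.71 ± 0.22, adjusted p = 0.466), again with adjoining but separate groups. A peak 33.5 kb from Tnfsf13b, which encodes the B cell survival factor BAFF, was also higher in mLN-SPF (log2 0.90). In the homeostatic list 2 and 3 of 87 peaks were higher in mLN-SPF and mLN-GF. The promoter of Il7, the T cell survival cytokine of T zone reticular cells, had 36.1, 36.4 and 39.8 RPKM in mLN-SPF and 50.6, 52.2 and 60.5 in mLN-GF (log2 -0.52 ± 0.15, adjusted p = 0.427). Its groups did not overlap, and its interval from -0.84 to -0.21 lay within 2-fold. The promoter of Cxcl13, the B cell chemokine, was weakly open in all 6 libraries (5.3 to 7.5 RPKM, log2 -0.07), and no promoter peak of Ccl19 or Ccl21a was among the peaks analysed.

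Receptors for diet- and microbe-derived ligands were examined because the mesenteric node drains the gut. In the aryl hydrocarbon receptor pathway, 1 of 45 peaks was higher in mLN-SPF and 3 in mLN-GF. The promoter of Ahrr, the repressor of this receptor and one of its target genes, had 15, 19.8 and 23.5 RPKM in mLN-SPF and 33.8, 39.9 and 40.5 in mLN-GF (log2 -0.95 ± 0.30, adjusted p = 0.470). The promoter of Nqo1, another target, had a log2 difference of -0.40 in the same direction. Both promoters were apart between the housings without passing the adjusted test. In this list the groups were apart with mLN-GF above at 3 peaks (6.67%, near the 6.43% of all peaks) and with mLN-SPF above at 0. Around genes of retinoic acid synthesis and response, 1 of 98 peaks was higher in mLN-SPF (1.02%) and 9 in mLN-GF (9.18%), while the list median of -0.04 was near that of all peaks. A peak 5.98 kb from Crabp2, which encodes a cellular retinoic acid-binding protein, had 22.7, 24.2 and 15.4 RPKM in mLN-SPF and 36.6, 56.2 and 45.2 in mLN-GF (log2 -1.11 ± 0.23, adjusted p = 0.262). Peaks nearest to Rarb, a retinoic acid receptor, Cyp26b1, which degrades retinoic acid, and Crabp1 were also higher in every mLN-GF library, with log2 differences of -1.11, -1.30 and -1.32. Over the whole retinoic acid list the groups were apart at 7 peaks with mLN-GF above (7.14%, near the 6.43% of all peaks). They were apart at 3 with mLN-SPF above (3.06% against 4.62%). Genes of short-chain fatty acid and bile acid receptors and histone deacetylases had 1 of 49 peaks in each direction, with a promoter peak of Hdac5 at 0.62.

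Around glucocorticoid response genes 7 of 93 peaks were higher in mLN-SPF (7.53%) and 3 in mLN-GF (3.23%), with a median of 0.08. An intronic peak of Hsd11b1, which regenerates active glucocorticoid inside cells, had 20, 28.5 and 26.9 RPKM in mLN-SPF and 14.4, 11.5 and 9.8 in mLN-GF (log2 1.02 ± 0.25, adjusted p = 0.35). Klf15 and Klf9, both glucocorticoid-induced factors, had peaks at 0.50 and 0.61. Circadian clock genes had 3 of 98 peaks in each direction. Immediate early and stress genes, which respond to tissue dissociation, had 10 and 9 of 179 peaks higher in mLN-SPF and mLN-GF. A distal peak 32.1 kb from Fos had 3.7, 8.3 and 13.6 RPKM in mLN-SPF and 30.4, 24.9 and 44.9 in mLN-GF (log2 -1.96 ± 0.49, adjusted p = 0.361). The list's promoter peaks, by contrast, had a median of 0.28 against 0.07 over all promoter peaks.

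Matrix and growth factor genes form the fibroblast program of these cells. In TGF-beta and BMP signalling 5 of 269 peaks were higher in mLN-SPF (1.86%) and 20 in mLN-GF (7.43%), with a median of -0.07. A peak 118.0 kb from Tgfb2 had 21.0, 15.5 and 13.1 RPKM in mLN-SPF and 35.1, 30.1 and 31.2 in mLN-GF (log2 -0.94 ± 0.22, adjusted p = 0.311), and an intronic peak named after Smad7, an inhibitor of this pathway, had a log2 difference of -0.71. Collagen and matrix genes had 13 and 14 of 289 peaks higher in mLN-SPF and mLN-GF. The lowest p among them was at an intronic peak of Timp3, an inhibitor of matrix proteases, with 59.4, 70.2 and 59.1 RPKM in mLN-SPF and 111.7, 97.1 and 101.1 in mLN-GF. Its difference of -0.71 ± 0.14 had an adjusted p of 0.230, and the groups were well apart. Intronic or distal peaks of the matrix protease gene Mmp2 and the matricellular gene Thbs1 were also higher in every mLN-GF library (log2 -1.06 and -1.12). Over the matrix list the groups were apart at 19 peaks with mLN-GF above (6.57%) and 13 with mLN-SPF above (4.5%), near the 6.43% and 4.62% of all peaks. Prostaglandin genes had 0 and 4 of 81 peaks by limma at an unadjusted p, the latter including a peak 64.7 kb from Ptgs2 (cyclooxygenase 2) at -0.68. Complement and antimicrobial genes had 1 and 0 of 23, the former being the promoter of complement factor Cfb at 0.62.

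**Figure D5:**
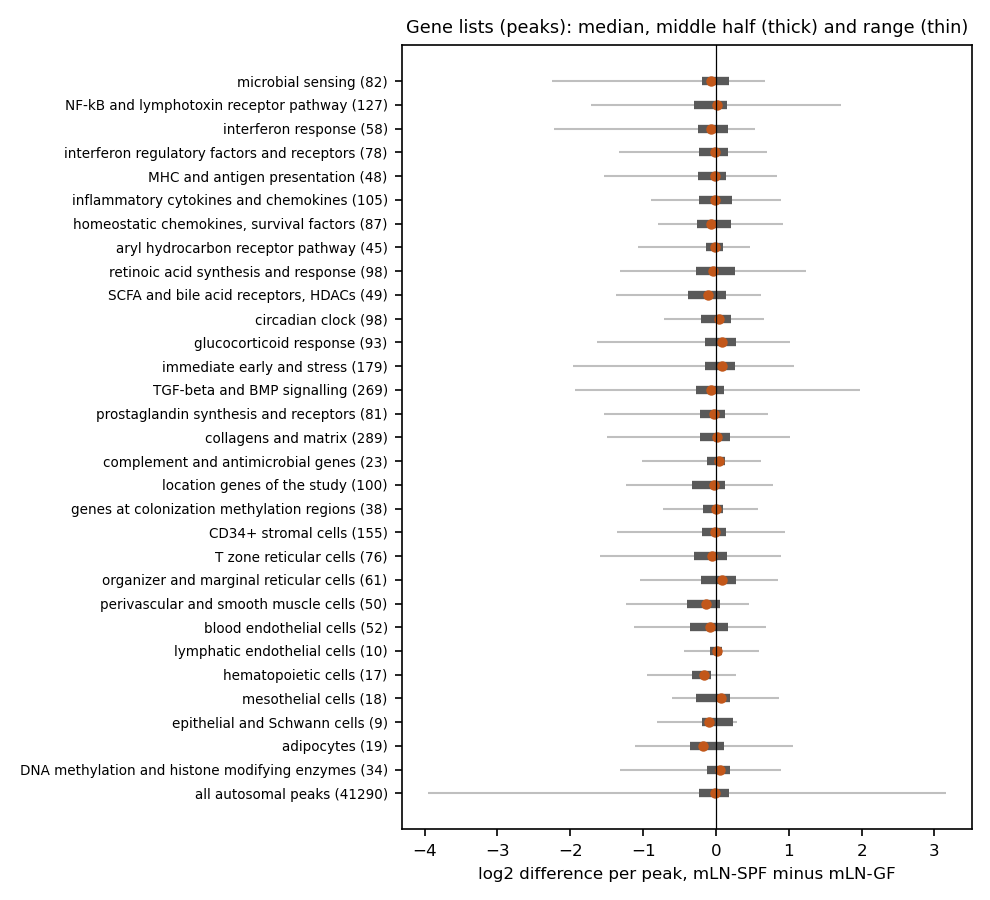
Log2 difference per peak (mLN-SPF minus mLN-GF) for the peaks nearest to the genes of 30 lists, with the number of peaks in brackets. Points are medians, thick bars the interquartile range and thin lines the whole range. The medians lie between -0.18 and 0.09, close to the -0.01 of all autosomal peaks.

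Promoters of Pdgfrb, Cd34, Pdgfra, Ltbr and Nkx2-3, genes of the sorted stroma, had overlapping levels in the 2 housings. Pdgfrb, the mesenchymal PDGF receptor, had 46.7, 45.5 and 44.6 RPKM in mLN-SPF and 38.2, 56.3 and 39.8 in mLN-GF, and Cd34 had 64.8, 63.3 and 71.1 against 70.6, 53.5 and 71.0. Both groups overlapped, with log2 differences of 0.05 ± 0.17 and 0.04 ± 0.16. Pdgfra (0.09), the lymphotoxin beta receptor gene Ltbr (0.09) and Nkx2-3 (0.26), a homeobox factor of gut-associated lymphoid stroma, overlapped too. Other stromal promoters were apart with mLN-GF above, namely Il7, Trf, Tnfsf11, the gene of the cytokine RANKL (24.8, 26.8 and 28.8 against 40.8, 32.5 and 34.3 RPKM, log2 -0.40), and Dsc2, a desmosomal cadherin gene (12.1, 11.9 and 11.6 against 15.7, 16.2 and 20.7 RPKM, log2 -0.51). They were picked from the T zone list and the organizer and marginal reticular list, with promoter peaks at 13 and 9 genes. Over all promoter peaks, 3.16% were apart with mLN-GF above and 5.63% with mLN-SPF above. Averaged over the genes with a promoter peak, with the highest such peak of each gene in each library, 22 of 28 CD34+ stromal genes had 36.4 to 41.8 RPKM in mLN-SPF and 35.4 to 39.4 in mLN-GF, and 13 of 20 T zone reticular genes 29.5 to 34.3 and 31.3 to 38.5. These ranges overlapped, with exact permutation p of 0.5 and 0.7 over 3 against 3 libraries. The T zone list held a promoter difference of about the size of that at H2-Q7, at Trf, the transferrin gene, with 8.0, 7.3 and 9.6 RPKM in mLN-SPF and 28.1, 31.6 and 21.6 in mLN-GF. The Trf difference of -1.59 ± 0.32 had an adjusted p of 0.260, and its pLN difference was -1.72. Single peaks of the CD34+ list were apart in both directions, such as one 259.0 kb from Fn1 (fibronectin) at 0.95 and 1 of the promoter peaks of Ebf3 at -0.56. The highest Ebf3 promoter peak per library overlapped between the groups (54.7, 37.3 and 38.5 RPKM in mLN-SPF and 37.7, 44.2 and 43.5 in mLN-GF). The genes that separate mesenteric from peripheral stroma in the study had 3 and 5 of 100 peaks higher in mLN-SPF and mLN-GF, with an intronic peak of Tcf4 at 9.2, 9.2 and 6.5 against 22.9, 20 and 18.9 RPKM (log2 -1.23 ± 0.26, adjusted p = 0.262).

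Markers of cells that the sort was meant to remove were examined over all their peaks and over their promoters. Of 50 peaks near perivascular and smooth muscle genes, 8 were higher in mLN-GF (16.0%) and 0 in mLN-SPF by limma at an unadjusted p, 7 of the 8 outside promoters, and the groups were apart at 4 peaks with mLN-GF above (8.0%, against 6.43% of all peaks) and 1 with mLN-SPF above (2.0% against 4.62%). Of 52 peaks near blood endothelial genes, 7 were higher in mLN-GF (13.5%), all outside promoters, and 0 in mLN-SPF, with the groups apart at 8 (15.4%) and 3 peaks (5.77%). Outside promoters as a whole, 6.58% of peaks were higher in mLN-GF at that p and 7.78% were apart with mLN-GF above. Of 17 peaks near hematopoietic genes, 1 was higher in mLN-GF (5.88%) and 0 in mLN-SPF. An intronic peak of Plvap, an endothelial membrane protein gene, had 15.6, 27.2 and 14.1 RPKM in mLN-SPF and 45.5, 35.4 and 41.5 in mLN-GF (log2 -1.12 ± 0.24, adjusted p = 0.262). A peak 72.9 kb from Cdh5 had a log2 difference of -0.61. The endothelial Sox7 promoter was apart the other way (30.4, 26.1 and 26.5 RPKM in mLN-SPF and 20.2, 20.2 and 25.5 in mLN-GF). Of the perivascular promoters, Notch3 was apart with mLN-SPF above (36.4, 42.3 and 32.0 against 19.8, 29.9 and 31.7 RPKM). Acta2 was apart with mLN-GF above (14.8, 17.1 and 14.4 against 18.3, 19.7 and 17.6 RPKM). Averaged over the 6 of 17 blood endothelial genes with a promoter peak, levels were 19.3 to 25.0 RPKM in mLN-SPF and 22.0 to 24.2 in mLN-GF, and over 11 of 16 perivascular genes 24 to 32.4 and 26.5 to 32.5 (exact permutation p of 0.9 for both). For lymphatic endothelial genes the ranges were 20.8 to 38.4 and 24.8 to 34.7 over 3 of 8 genes, with 0 of 10 peaks at an unadjusted p under 0.05 by limma. Whether a small number of such cells took part in these differences was not tested.

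Genes at sites where the study tied DNA methylation of mesenteric stroma to colonization showed no DAR either, and since the study chose this list on mice of the same housings it is not independent of them. Of its 15 genes, 13 were nearest to a peak, and of the 38 peaks 0 were higher in mLN-SPF and 1 in mLN-GF by limma at an unadjusted p, an intronic peak of Slc24a3 at -0.72. The promoters of Wt1, a factor of mesothelium and visceral stroma (-0.01), Grb10 (0.10), Snd1 (0.07), Unc93b1, which carries nucleic acid-sensing Toll-like receptors (-0.07), and Pltp (0.07) had overlapping groups. At Blcap, which lies in an imprinted region, the promoter had 60.1, 43.8 and 40.3 RPKM in mLN-SPF and 38.9, 36.4 and 35.0 in mLN-GF. The Blcap groups were apart by a small margin (log2 0.36 ± 0.19, adjusted p = 0.658).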

How the data were processed

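Alignment by the authors used STAR 2.5.3a and the mm10 (GRCm38) genome. They kept uniquely mapped, deduplicated reads and called broad peaks with MACS2 in each library. The authors scaled counts over the merged peaks with DESeq2 1.22 size factors. No shift of reads for the transposase insertion is stated. The deposited table gives RPKM per library and peak, and the deposited peak width (other) in bp. It also holds the authors' fold changes and adjusted p-values, which were not used. The column labelled pLN-GF 2 was not used either. Each of its values equals the mean of the 5 other pLN columns, SPF ones included, so it holds no measurement of that library. Whole reads (counts) behind the deposited RPKM were recovered for 100% of values within a tolerance of 0.02 reads.

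The 42434 entries held 10 repeats. limma 3.58.1 (R 4.3.3) was fitted to log2(RPKM + 1) of 11 libraries as 4 group means, with a variance trend and 7 residual degrees of freedom, adjusted over 42424 peaks. Differences on this scale understate those of low peaks. A DAR needed an adjusted p under 0.05 and at least 2-fold. Promoter peaks had their midpoint within 1 kb of a start site. Named peaks were, per direction, the 10 with the lowest p among peaks apart between the groups, at least 2-fold and at least 10 RPKM in the higher group, and up to 4 genes per list with the lowest p, besides fixed stromal and methylation genes. Members, lists and rules were chosen with earlier results of these data known. The fits were tested on simulated data with independent noise and changes well above 2-fold, which does not show their power at smaller differences. Read counts limit precision, and p-values cover the spread of libraries only.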

Additional observations from a re-analysis of the deposited data

Results flagged for a closer look

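At 3 named peaks the housings were apart in both nodes but in opposite directions. The Arhgap35 intron peak had a log2 difference (SPF minus GF) of 1.077 in mLN and -0.495 in pLN, the intergenic peak near S100a9, a calprotectin subunit gene, had 0.556 and -0.626, and the Plin1 exon peak, in the gene of a lipid droplet protein, had -0.331 and 0.262. The limma test of the difference between the nodes gave unadjusted p of 0.000594, 0.0165 and 0.0566 and an adjusted p of 1.0 for all 3.

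Outside the autosomes, a promoter peak of Mid1 on chromosome X, a gene at the edge of the pseudoautosomal region, had 31.0, 29.3 and 52.1 RPKM in mLN-SPF and 0.8, 0.9 and 0.0 in mLN-GF. Its log2 difference was 4.636 (limma adjusted p = 0.00461), and pLN showed 5.051. A neighbouring Mid1 exon peak had 24, 5.1 and 26.1 against 0.8, 0.5 and 0.0 RPKM. The groups overlapped at the 2 other promoter peaks of Mid1 (log2 -0.66 and -0.27) and at an intron peak with a log2 difference of 1.31, while another intron peak had 19, 14.6 and 14.5 RPKM in mLN-SPF and 35.9, 24.3 and 35.5 in mLN-GF (log2 -0.94). Peaks on the X and Y chromosomes entered the fit and the adjustment of p over 42424 peaks but no count above. With autosomal peaks alone the lowest adjusted p in mLN was 0.127 instead of 0.0747. Housing and the origin of the mice cannot be told apart here either.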

How the results depend on the processing

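The count of 0 mLN DARs became 1 with a pseudocount of 5 (H2-Q7, adjusted p = 0.0435), 2 with voom on recovered reads (H2-Q7 and Myo3a), and 0 to 2 when single libraries were left out. It was 2 without mLN-GF 2 (Usp34 and Ubxn11) or pLN-SPF 3 (H2-Q7 and Adgrf3), and 1 without mLN-SPF 3 (Dip2c) or pLN-SPF 1 (H2-Q7). H2-Q7 had log2 differences from -1.71 to -1.37 over 23 alternatives, with adjusted p from 0.0355 to 0.427, and passed in 4. The 20 named peaks passed in 8 of 460 alternative values. Whether the replicate numbers pair the samples is not stated. Same-numbered mLN-SPF and mLN-GF libraries had correlations of -0.11, 0.23 and 0.17, and different-numbered ones from -0.3 to 0.12, which does not settle it. Pairing of same-numbered mLN and pLN libraries was not examined, and the main fit took all libraries as independent. The libraries numbered 3 were the shallowest of both SPF groups, with 2795036 (mLN) and 2953577 (pLN) reads in autosomal peaks. With a replicate block the mLN count was 1 (Ubxn11) and the pLN count 4. The 2 pLN DARs became 4 with a pseudocount of 0.5, 1 with no variance trend, 44 with voom, 1 without both mLN libraries numbered 2, 10 after centring by GC content and width, and 2 to 6 in the leave-outs. H2-Q7 was not among the pLN calls with no variance trend (adjusted p = 0.0918) or without pLN-GF 1 (0.0507) or pLN-GF 3 (0.141). C1qtnf3 was not among them without both mLN libraries numbered 2 (0.0568), pLN-GF 1 (0.0791) or pLN-GF 3 (0.148). Of the 10 peaks per direction, 7 higher in mLN-GF and 3 higher in mLN-SPF were apart in the same direction in pLN, against 4 and 4 when the 6 mLN libraries alone chose them. The interaction count of 0 became 1 without pLN-GF 1 (Galnt17). Without a pLN-GF library the other one is assumed to vary like the other groups. The share of peaks at an unadjusted p under 0.05 that were higher in mLN-SPF was 37.1%, against 48.1% after quantile normalization and 47.1% after GC and width centring (added after seeing the data). The median over all peaks turned from -0.0105 to 0.0199 after quantile normalization, and after GC and width centring the promoter median turned from 0.07 to -0.03 and the intergenic one from -0.03 to 0.03. The cause of these changes was not tested. The shallowest library, mLN-SPF 3, held 2795036 reads in autosomal peaks and a median of 37 per peak, which limits narrow peaks most.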

Other observations

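Of 41290 autosomal peaks, SPF was below GF at 80 and above at 16, by at least 2-fold and without overlap, in both mLN and pLN. In mLN alone the counts by the same rule were 474 and 121, which lean the same way. Beside H2-Q7 and Trf, the 80 peaks included a peak 4.92 kb from Mcl1, which encodes an anti-apoptotic protein, with 40.6, 29.0 and 42.0 RPKM in mLN-SPF and 91.0, 74.1 and 61.9 in mLN-GF. They also included a peak nearest to Ednrb, an endothelin receptor gene, with 9.3, 7.9 and 4.2 against 25.3, 20.1 and 17.2 RPKM, and one nearest to Cadm1, a cell adhesion gene, with 4.1, 2.6 and 5.0 against 22.4, 25.3 and 11.4. Among the 16 was the promoter of C7, a complement gene expressed by fibroblasts, with 41.2, 36.8 and 36.6 RPKM in mLN-SPF and 14.2, 19.1 and 20 in mLN-GF. These examples were chosen after their values were seen, and none passed the mLN threshold.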
